A study of Mus musculus with 24 samples.

Results

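Loss of ciRS-7 was examined in the PI cortex of mice 1 day after a transient stroke, in 6 knockout (KO) and 6 wild-type (WT) libraries, 12 of the 24 libraries of the study, across all 14452 genes of the table that holds both groups. ciRS-7, also named Cdr1as, is a circular RNA of the brain. The members were chosen by their labels alone: PI cortex, with KO or WT in the sample title. All animals were males of 3 to 4 months that underwent transient occlusion of the middle cerebral artery by a filament (1 h) and were sampled after 1 day of reperfusion, so both genotypes went through the same procedure. Injury size was not analysed here. The strain is given as C57BL/6N-Cdr1asem1Nikr for every animal, WT included, and the name denotes an edited Cdr1as allele. Neither CL nor PI, the marks on the cortex samples, is spelled out in the labels. The 6 CL KO and 6 CL WT libraries served only to set a value in PI beside the same contrast in the other samples. Expression is given as log2 CPM (CPM, read counts of a gene scaled to the size of the library).

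ciRS-7 is made when the ends of a single exon are joined, which leaves an RNA without a cap or a poly(A) tail. It carries a dense array of sites for the microRNA miR-7 and a nearly complete site for miR-671, whose pairing leads to cutting of the circle. The long noncoding RNA Cyrano (Oip5os1 in mouse) holds a site that triggers the decay of miR-7, and together these RNAs form a small regulatory circuit in neurons. MicroRNAs pair with target transcripts through their seed (bases 2 to 8) and lower the targets' levels or translation.

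The sequences of this circuit show why miR-7 and its targets were examined first. The mature microRNAs below are from RefSeq (GRCm38.p6), with the seed in capitals. miR-7a comes from genes on chromosomes 7 and 13 and miR-7b from chromosome 17, and both share 1 seed, while miR-671-5p, from chromosome 5, has another.
miR-7a-5p: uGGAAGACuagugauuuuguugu
miR-7b-5p: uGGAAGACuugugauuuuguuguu
miR-671-5p: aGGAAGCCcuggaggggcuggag

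The ciRS-7 exon was taken from the GENCODE M21 annotation of GRCm38 as the exon of a Cdr1os transcript with the most matches to the miR-7 seed. It lies at chrX:61183248-61186174 on the plus strand and is 2927 bases long. It holds 123 matches to the miR-7 seed (the letters GTCTTCC, plus strand only), 1 for every 23.8 bases, of which 34 are followed by A. The other 6 exons of that transcript, 427 bases together, hold 0 matches. The exon was picked by its matches, so this contrast is a description and not a test. The window chrX:61183651-61183850 shows the array at its densest, with 11 matches in capitals.
ciRS-7 exon window: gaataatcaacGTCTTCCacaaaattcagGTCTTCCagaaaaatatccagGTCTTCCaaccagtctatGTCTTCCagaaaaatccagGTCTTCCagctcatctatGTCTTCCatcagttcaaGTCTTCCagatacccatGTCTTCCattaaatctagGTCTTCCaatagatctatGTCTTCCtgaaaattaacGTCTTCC
For comparison, the longest 3′ UTRs of the genes tested were searched. Of 11760 with at least 200 bases, 1.905% hold a match in their first 200 bases, and none holds more than 2 there. The window was picked as the densest of the exon, whereas that stretch of a UTR is fixed. At the full length of the exon, 23.34% of 2369 UTRs hold a match in their first 2927 bases, and none holds more than 3 there. The best match to miR-671-5p in the exon lies at chrX:61186029-61186051, where the capitals mark the 19 of 23 bases that pair. The next best position pairs at 17.
miR-671-5p best match: tTCCAGCatCTCCAGGGCTTCCa

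Read depth had to be inferred from the values and came to 5.27 to 6.96 M reads per library in PI KO (mean 6.23, SD 0.58, n = 6) and 6.12 to 9.69 M in PI WT (mean 7.47, SD 1.53, n = 6). The group means differed by less than an exact two-sided permutation test could call (p = 0.10173 over 924 splits, smallest possible p = 0.0021645), but WT libraries 1 and 2 were the deepest of the 12. In every gene and group, 2 libraries tie at the bottom and 2 at the top, each pair at the group's quartile, so the deposited spread is narrower than that of the original values. Values per library below are as deposited. Group means are means of the 4 inner values, which can be solved from the ties. The number after ± is the standard error (SE) of that mean, with n = 6 libraries per group. Differences are KO minus WT on the log2 scale, tested with a moderated trimmed-mean test (limma's empirical Bayes step) and Benjamini-Hochberg adjustment over the 14452 genes, and calls are adjusted p values under 0.05. Nothing in the labels says whether library numbers pair animals across genotypes.

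Only 3 of 14452 genes were called (0.0208%), and all 3 lie at the ciRS-7 locus. Cdr1as and Cdr1 fell in PI KO (2 genes called lower, 0.0138%), and Cdr1os rose (1 gene called higher, 0.00692%). In PI WT the deposited level of Cdr1as ran from 11.35 to 11.52 log2 CPM over the 6 libraries (mean 11.42 ± 0.06). In PI KO, libraries 1, 4 and 5 were listed at the lowest value of the table, libraries 3 and 6 at -2.59 and library 2 at -2.68 log2 CPM. The highest recovered KO value was 0.169 CPM, under the limit of 3 reads, which corresponds to 0.310 to 0.569 CPM depending on the library. Taking the WT mean over that limit, the recovered KO values were at least 4815-fold lower (adjusted p = 0.0023664). The highest recovered value would be 1.18 reads at the depth of the deepest KO library. The top KO library was set to the quartile, so its original value is unknown, and the limit covers counting error only. With a prior variance that ignored the trend of variance on level, Cdr1as was not called (adjusted p = 0.189), nor with a robust prior (adjusted p = 0.720), although the groups lay equally far apart.

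Cdr1, a protein-coding annotation on the opposite strand inside the exon (chrX:61184005-61185558), stood at 4.30, 4.30, 4.44, 4.49, 4.50 and 4.50 log2 CPM in the 6 WT libraries. In KO it was listed at 0.001 CPM, the lowest value, in all 6. The WT mean of 4.42 ± 0.08 corresponds to 21.5 CPM, so Cdr1 was at least 37.7-fold lower in the recovered KO values (adjusted p = 0.0023664). Whether counting used strand is not given in the sources used here, so reads of the exon may have been shared out between Cdr1as, Cdr1 and Cdr1os in a way that cannot be told from the values.

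Cdr1os, the long noncoding RNA whose gene spans the locus (chrX:61116378-61292484, plus strand), was the gene called higher. Its WT libraries 1 to 6 stood at 6.67, 6.79, 6.85, 6.67, 6.82 and 6.85 log2 CPM. Its KO libraries 1 to 6 stood at 8.28, 8.25, 8.17, 8.25, 8.17 and 8.28, so the groups did not overlap and were separated by more than 1 log2 unit. The mean rose from 6.77 ± 0.07 to 8.23 ± 0.04, a difference of 1.46 (SE 0.07, adjusted p = 1.2843e-06), or 2.75-fold (95% interval 2.46 to 3.07). It was called without each of the 12 libraries in turn, with differences of 1.41 to 1.49. In CL the same difference was 1.80, and the PI difference was smaller by 0.34 (unadjusted p = 0.0025), which was not called after adjustment over 14093 genes (adjusted p = 0.99181).

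**Figure D1:**
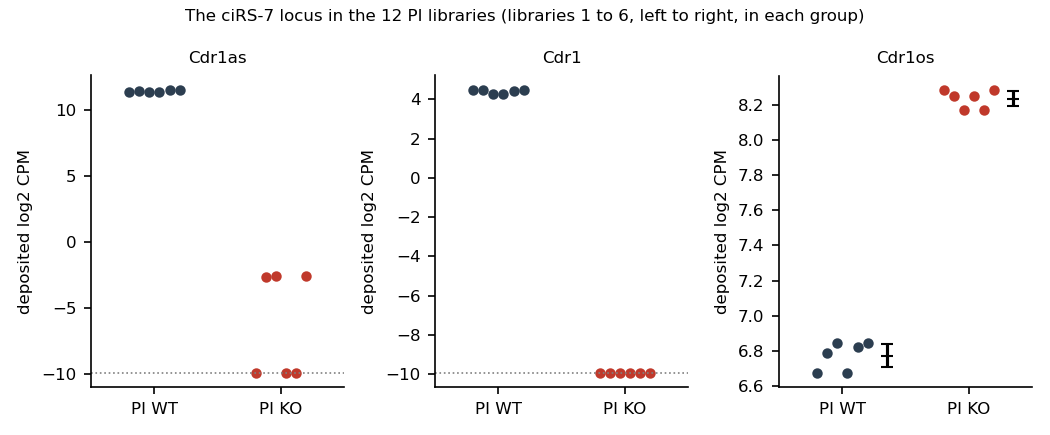
Deposited log2 CPM of Cdr1as, Cdr1 and Cdr1os in PI WT and PI KO, 1 point per library (6 per group). Dotted lines mark the lowest listed value, and for Cdr1os the bars beside the points give the group mean ± SE: Cdr1as and Cdr1 lie far below WT in every KO library, and Cdr1os lies above 8 log2 CPM in every KO library and below 7 in every WT library.

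The region around the locus was scanned for other changes. Apart from Cdr1, 15 genes of the table lie within 5 Mb of Cdr1os, and none was called. The smallest p among them belonged to Fhl1, which encodes a LIM-domain protein, at 5.45 log2 CPM in KO and 5.65 in WT (difference -0.21, 95% interval -0.36 to -0.05, adjusted p = 0.85443). Slitrk4, a neighbouring gene for a synaptic membrane protein, differed by 0.05 (95% interval -0.10 to 0.21).

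Beyond the locus no gene passed the test. The next smallest adjusted p after the called genes was 0.57399. At an unadjusted p under 0.05 stood 831 genes (5.75%), 404 above 0 (2.8%) and 427 below 0 (2.95%), and 48.5% of all genes lay above 0. The precision was good for most genes: the median half-width of the 95% interval was 0.25, or 1.19-fold. The interval lay inside a 1.5-fold difference in either direction for 75.9% of all genes and for 98.7% of the 5407 genes at 5 log2 CPM or more. In CL, 820 of 14323 genes (5.73%) had an unadjusted p under 0.05, 3.16% above 0, and 49.2% lay above 0. Of them 4 were called (0.0279%), the 3 locus genes and Lrrc17, a gene for a leucine-rich repeat protein, which in PI differed by 0.11 (95% interval -0.20 to 0.42). The KO-WT difference in PI was also compared with that in CL gene by gene, and 0 of 14093 genes were called by the moderated trimmed-mean test, while 637 (4.52%) had an unadjusted p under 0.05. By their titles the CL and PI libraries of 1 number come from the same animal, and that test treated them as separate samples, so the sharing of animals was not modelled.

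**Figure D2:**
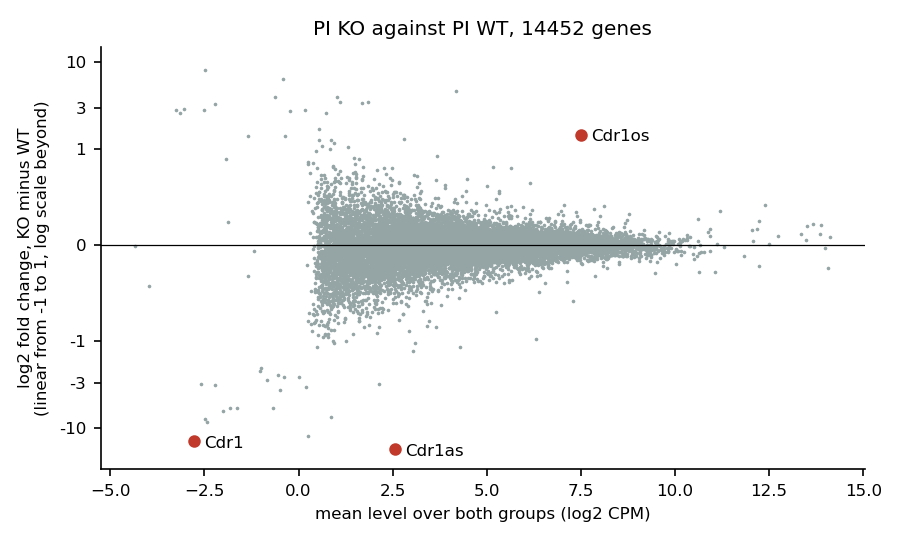
Log2 fold change of PI KO over PI WT (vertical, linear between -1 and 1 and logarithmic beyond) against mean level in log2 CPM for the 14452 genes, 1 point per gene. The called genes, Cdr1os above 0 and Cdr1 and Cdr1as below, are in red and labelled; the scatter of the rest narrows as the level rises.

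Among uncalled genes with a mean of at least 1 log2 CPM, those with the smallest p above 0 included Gm14419 (difference 0.68, adjusted p = 0.574), AI413582 (0.60), Calb1, Anapc2 (0.34), Gm11808 (0.36), Gm8797 (0.31), Rps21, Amd2 (1.31) and Fbxo33 (0.26). Calb1 encodes the calcium-buffering protein calbindin of cortical neurons. Its WT libraries lay between 6.47 and 6.56 log2 CPM and its KO libraries between 6.74 and 6.78. The deposited groups did not overlap, but that held in the same direction for 1003 genes (6.94%), and the difference of 0.25 (95% interval 0.13 to 0.37) had an adjusted p of 0.768. Below 0 the smallest p belonged to Gm37204, Gm26691 (-0.71), Igfn1 (-0.58), Gm37248 (-0.63), Gm43318, Gm38085 (-0.68), Fam163b (-0.36), Gm42770 (-0.28), Gm42549 (-0.54) and Gm43319 (-0.39), of which most are unnamed gene models. Gm37204 stood at 3.67 to 3.97 log2 CPM in WT and 2.78 to 3.20 in KO (difference -0.84, 95% interval -1.20 to -0.49, adjusted p = 0.574).

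None of the partners of ciRS-7 in the circuit was called, and most of their intervals included 0. Oip5os1, the mouse Cyrano transcript, lay between 9.98 and 10.12 log2 CPM in WT and between 9.94 and 10.05 in KO. The groups overlapped, and the difference was -0.04 (95% interval -0.18 to 0.10). Hnrnpk, the host gene of a miR-7 hairpin, differed by -0.07 (95% interval -0.19 to 0.04), and Chpf2, the host gene of miR-671, by -0.15 (95% interval -0.33 to 0.03). The Argonaute genes Ago1, Ago2 and Ago3, whose proteins carry microRNAs, differed by -0.12, -0.03 and 0.02. Among the genes of microRNA maturation and decay, Dicer1 differed by -0.08, Drosha by -0.05, Dgcr8 by -0.08, Xpo5 by -0.03, Zswim8 by -0.01, Tut7 by -0.02 and Dis3l2 by 0.07. Tut4, a terminal uridylyl transferase, had the smallest p of this group, with 6.51 ± 0.02 log2 CPM in KO and 6.72 ± 0.07 in WT (difference -0.21, adjusted p = 0.854). Of the 17 network genes in the table, none outside the locus was called. The mature microRNAs themselves were not measured by this assay.

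Transcripts reported as miR-7 targets were considered next, to ask whether they differed where ciRS-7 was absent. Of 31 such genes in the table, 18 lay above 0 and 13 below, the median difference was 0.018 against -0.005 for all genes, and none was called. Ccne1, the gene of cyclin E1, had the smallest p, with WT libraries between 2.92 and 3.15 log2 CPM and KO libraries between 3.34 and 3.46 (difference 0.36, adjusted p = 0.854). Its longest annotated 3′ UTR holds 0 matches to the miR-7 seed, and in CL it differed by 0.31 (adjusted p = 0.824). Fos, also an immediate early gene, was the only other target with an unadjusted p under 0.05. Such a p was thus found for 6.45% of the 31 targets, against 5.75% of all genes. Egfr, the epidermal growth factor receptor gene, differed by 0.11 (95% interval -0.10 to 0.31). Irs1, an insulin receptor substrate, differed by 0.06 (95% interval -0.11 to 0.23), and Spata2, whose 3′ UTR holds 2 matches followed by A, by 0.11 (95% interval -0.08 to 0.31). Members other than Ccne1 were named after their values were seen.

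A wider view used the annotated 3′ UTRs of 12660 genes, in which GTCTTCC was searched on the sense strand only and called an 8mer where A follows it. A gene without a match also lacks the 6 bases TCTTCC followed by A. The 560 genes with an 8mer for miR-7 had a median difference of -0.012, with 45.4% above 0. The 9192 genes with no match had a median of 0.005, with 51.8% above 0. In CL the medians of the same classes were -0.013 and -0.004. No gene of either class was called in PI. Genes with matches have longer transcripts, with a median of 4646 bases for genes with an 8mer against 3295 for those without a match. Within protein-coding genes of 4000 to 8000 bases, the medians were -0.008 for 265 genes with an 8mer and -0.012 for 2821 without a match. Within 2000 to 4000 bases they were -0.005 for 182 and 0.008 for 3805. The order of the classes thus turned between these length groups. For miR-671-5p (GGCTTCC) the median was -0.015 for 563 genes with an 8mer and 0.005 for 9725 without a match.

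Immediate early genes, which neurons switch on within minutes of activity or injury, had most of their members above 0 in PI KO. Of 32 in the table, 23 lay above 0, 7 had an unadjusted p under 0.05, all above 0, and none was called, where 2.8% of all genes had such a p above 0. The median difference was 0.23. In CL the median was 0.39, with 30 of 31 above 0, and the PI difference was not called as different from the CL difference for any member (adjusted p of 0.99 or more for those named here). The 7 genes were Ptgs2 (0.39), which encodes the prostaglandin enzyme COX-2, Btg2 (0.43), Junb (0.35), Dusp1 (0.48), Bdnf (0.48), Fos and Arc.

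The libraries of PI KO were not alike in these transcripts. Arc, whose product acts at synapses, stood at 5.41 log2 CPM in KO libraries 1 and 6, at 6.01 in library 2, at 6.42 in library 4 and at 6.50 in libraries 3 and 5. WT libraries lay between 5.08 and 5.36. The mean difference of 0.80 had a 95% interval of 0.16 to 1.44 (adjusted p = 0.854). Libraries 1 and 6 are the tied pair at the lower quartile of KO, so their original values, and how far they lie from WT, cannot be read from the deposited ones. Fos was also lowest there, at 3.82 in KO libraries 1 and 6 and at 4.10 to 4.51 in the others, against 3.31 to 3.75 in WT (difference 0.63, adjusted p = 0.854). Egr1, a zinc finger transcription factor gene, stood at a deposited 4.999 in KO libraries 1 and 6 and at 5.82 to 6.34 in the others, against 5.08 to 5.51 in WT (difference 0.40, 95% interval -0.43 to 1.22). Summed over the deposited values of the 32 genes, KO libraries 1 and 6 held 973 and 948 CPM and KO libraries 2 to 5 held 1164 to 1290, with WT at 924 to 963. Without KO library 1 the number of members with an unadjusted p under 0.05 above 0 was 15, and without KO library 6 it was 16, with medians of 0.31 and 0.35. Without KO libraries 2, 3, 4 or 5, taken in turn, the medians were 0.12, 0.15, 0.15 and 0.13 and the numbers 6, 5, 5 and 7.

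Heat shock transcripts, which encode protein-folding chaperones, also varied among the KO libraries. Of 18 members, 16 lay above 0, with a median of 0.19 and none called (CL median 0.03). Their sum was 7434 to 7771 CPM in KO libraries 2, 3 and 5, 5622 to 6094 in KO libraries 1, 4 and 6, and 5275 to 6269 in WT. Hspa1a, the main inducible heat shock protein 70 gene, stood at 6.14 to 6.72 log2 CPM in KO libraries 2, 3 and 5 and at 4.58 to 4.65 in the others, and ran from 3.92 to 5.46 in WT. Its difference of 0.81 had a 95% interval of -0.60 to 2.22, and its reads may be shared with its near-identical neighbour Hspa1b. Hspa8, the constitutive member, differed by 0.27 and Hspa5, the chaperone of the endoplasmic reticulum, by 0.20 (adjusted p = 0.854 each). Without KO library 3 the median of the list was 0.11 and without library 5 it was 0.10, with 0 members at an unadjusted p under 0.05 in each case, and over all libraries left out in turn the number ran from 0 to 4.

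**Figure D3:**
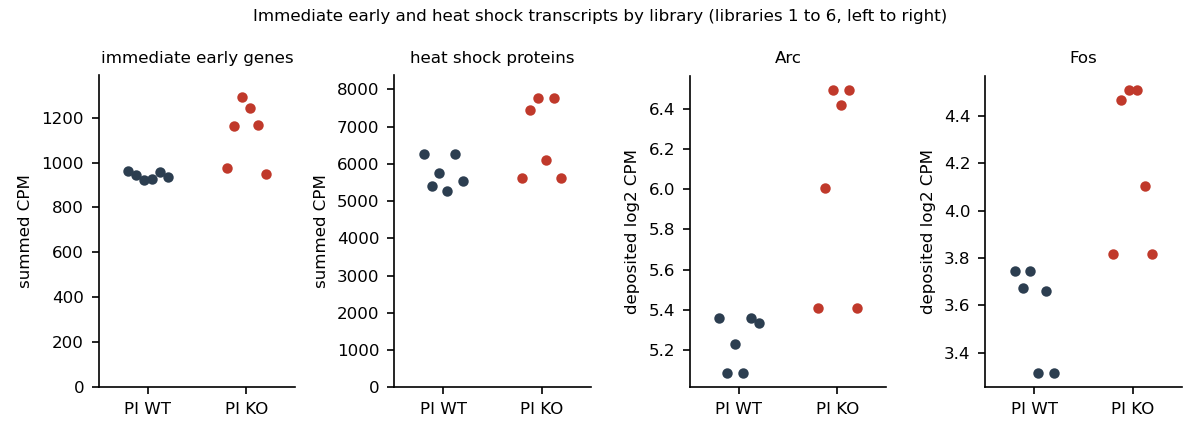
Summed CPM of the 32 immediate early and the 18 heat shock genes (left) and deposited log2 CPM of Arc and Fos (right) in PI WT and PI KO, 1 point per library with libraries 1 to 6 from left to right. KO libraries 1 and 6 lie near the WT values of the immediate early sum, and KO libraries 2, 3 and 5 hold the highest heat shock sums.

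No gene of the inflammatory lists passed the test, and the lists differed in direction. In a bulk sample, a larger share of a cell type and more RNA per cell of that type cannot be told apart. Of 16 interferon-stimulated genes, 15 lay above 0, with a median of 0.25 against -0.05 for the members measured in CL. An unadjusted p under 0.05 was found for 4, all above 0, against 2.8% of all genes in this direction. Ifit1, an antiviral RNA-binding protein gene, stood at 2.12 to 2.56 log2 CPM in WT and 2.85 to 3.14 in KO (difference 0.65, adjusted p = 0.768), and the deposited groups did not overlap, as for 6.94% of all genes in this direction. Rtp4, another interferon-responsive gene, stood at 0.931 to 1.249 in WT and 1.59 to 2.24 in KO (difference 0.84, adjusted p = 0.854). Stat2, a transcription factor of the interferon response, was the exception below 0 (-0.16, 95% interval -0.42 to 0.11).

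Homeostatic microglia genes had 12 of 14 members above 0 (median 0.20) and phagocytic microglia genes also 12 of 14 (median 0.17), with CL medians of 0.15 and 0.06. P2ry12, a purinergic receptor that defines resting microglia, differed by 0.27 (95% interval -0.13 to 0.68) and Cx3cr1, the fractalkine receptor gene, by 0.13 (95% interval -0.24 to 0.50). Apoe led the second list (0.24, adjusted p = 0.854). The summed level of the homeostatic list was 226 to 275 CPM in KO and 203 to 235 in WT, with overlap, and that of the phagocytic list was 962 to 1092 in KO and 859 to 953 in WT, without overlap. These are sums of values narrowed to the group quartiles, and among single genes 6.94% were free of overlap in this direction. Their part in the values of other inflammatory genes was not tested.

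Complement genes had 7 of 12 members above 0. C1qc and C1qb, subunits of the first component made by microglia, differed by 0.35 and 0.32 (adjusted p = 0.768 each). Among 15 cytokine and chemokine genes, Il1a, the gene of interleukin-1 alpha, had the smallest p, at 0.89 to 1.14 in WT and 1.68 to 2.20 in KO (difference 0.90, adjusted p = 0.768). Of 20 toll-like receptor and NF-kappaB genes 12 lay above 0 (median 0.040), with the smallest p for Tlr3 (0.23). Of 12 genes of the gp130 pathway 6 lay above 0 and 6 below (median -0.008), with the smallest p for Socs3 (0.42, 95% interval -0.12 to 0.96). Of 8 antigen presentation genes 4 lay above 0 and 4 below (median -0.022), with the smallest p for B2m (-0.21, adjusted p = 0.854).

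No marker of the cortex's resident cells was called. Neuron markers had 8 of 14 members above 0 with a median of 0.007. Snap25, a synaptic release protein gene, was the highest of them, at 11.28 ± 0.06 log2 CPM in KO and 11.30 ± 0.06 in WT. The summed neuron markers were 10237 to 11470 CPM in KO and 11350 to 11630 in WT, and 4 KO libraries lay below every WT library. The noncoding RNA Meg3 had the smallest p of this list (-0.28, adjusted p = 0.854). Homeostatic astrocyte genes had a median of 0.040, with Slc1a2, the main glutamate transporter gene, at 12.51 ± 0.07 in KO and 12.50 ± 0.03 in WT. Gfap, the intermediate filament gene of reactive astrocytes, stood at 8.15 ± 0.19 in KO and 8.02 ± 0.11 in WT. Reactive astrocyte genes had 12 of 17 members above 0 (median 0.13), led by Cxcl10 and Timp1 (0.69 and 0.52, adjusted p = 0.854 each). Oligodendrocyte markers had a median of 0.057, with Mbp at 9.42 ± 0.06 in KO and 9.37 ± 0.21 in WT, where WT libraries 1 and 2 held summed levels of 2399 and 2401 CPM and the other WT libraries 1715 to 1807. Endothelial markers had a median of -0.052, with Slc2a1 differing by -0.01.

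Markers of choroid plexus and ependyma, of lymphocytes, and of neutrophils and monocytes were mostly absent from the table. Most fibroblast and meninges, haemoglobin and striatum genes of the lists were present (8 of 8, 4 of 5 and 7 of 10). Only 1 of 10 choroid plexus and ependymal markers was present (Kl, -0.57, adjusted p = 0.854), 1 of 11 lymphocyte genes (Ighm, -0.01) and 4 of 15 neutrophil and monocyte genes. Those 4 all lay above 0 (median 0.47, none called), with sums of 22.3 to 32.5 CPM in KO and 19.7 to 25.013 in WT. S100a8, an abundant neutrophil transcript, stood at 2.02, 2.22 and 2.22 log2 CPM in KO libraries 2, 3 and 5, which also held the highest heat shock sums, at 0.79 to 1.19 in the other KO libraries and at -0.01 to 0.78 in WT. Its mean was 1.54 ± 0.50 in KO and 0.37 ± 0.28 in WT (difference 1.16, 95% interval 0.16 to 2.17, adjusted p = 0.854). Fibroblast and meninges genes had 7 of 8 members above 0 (median 0.10), with sums of 293 to 360 CPM in KO and 225 to 315 in WT. All 4 haemoglobin genes present lay above 0 (median 0.30), with sums of 36.2 to 52.5 CPM in KO and 30.5 to 51.4 in WT. Their part in other results was not tested. The 7 striatum markers present had a median of 0.0003, with Pde10a at 6.04 in both groups.

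Synaptic genes had small median differences and no call. Of 17 ionotropic glutamate receptor genes 12 lay below 0 (median -0.041), of 22 genes of synaptic vesicle release 17 lay below 0 (median -0.040), and of 12 GABA-A receptor subunits 7 lay above 0 (median 0.023). Grid1, a delta glutamate receptor gene, had the smallest p of the ionotropic list (-0.19, adjusted p = 0.854). Camk2b, a subunit of the calcium/calmodulin kinase of the postsynaptic density, differed by -0.18 (adjusted p = 0.854). The list medians of sodium and calcium channels (-0.042) and potassium channels (-0.019) were as small.

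Metabolic and stress pathways gave no call either. Of 16 cholesterol synthesis genes 14 lay below 0 (median -0.095), led by Hmgcs1, the synthase at the start of the pathway (-0.15, adjusted p = 0.854), with summed levels of 934 to 1016 CPM in KO and 978 to 1119 in WT. Hypoxia-response genes had a median of -0.045 and glycolytic enzymes one of 0.024. Targets of the oxidative stress factor NRF2 had a median of 0.0015, with Sod1, the superoxide dismutase gene, highest in significance (0.24, adjusted p = 0.768). Apoptosis and pyroptosis genes had a median of 0.030, with Bcl2l1, a survival gene, at -0.17 (adjusted p = 0.854).

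**Figure D4:**
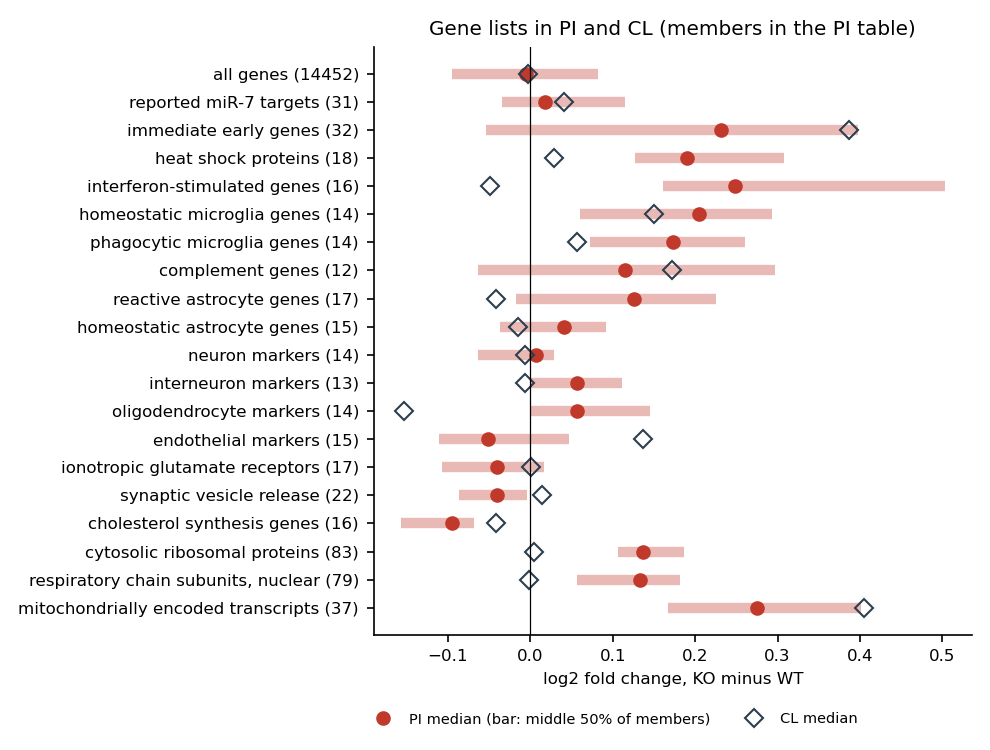
Median log2 fold change of KO over WT for 19 gene lists and all genes, in PI (red points, with bars for the middle 50% of members) and in CL (open diamonds), with the number of members in the PI table in brackets. Immediate early and mitochondrially encoded genes have positive medians in both; ribosomal protein and respiratory chain genes have positive medians in PI and medians near 0 in CL.

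Several gene groups with short transcripts had most of their members slightly above 0, without a call. Of 83 cytosolic ribosomal protein genes, 81 lay above 0, with a median of 0.14, and none was called. An unadjusted p under 0.05 was found for 34 of them, all above 0, against 2.8% of all genes in this direction. In CL the median was 0.004. Rps21, a protein of the small ribosomal subunit, stood at 7.19 to 7.32 log2 CPM in WT and 7.46 to 7.63 in KO (difference 0.30, adjusted p = 0.768). Summed over the list, the 6 KO libraries held 9797 to 10511 CPM and the 6 WT libraries 8823 to 9459, without overlap of these sums of narrowed values (6.94% of single genes were free of overlap in this direction). Of 79 nuclear genes for respiratory chain subunits, 67 lay above 0 (median 0.13, CL median -0.001), led by Ndufs7 of complex I (0.30, adjusted p = 0.768), and their sums, 6089 to 6402 CPM in KO and 5522 to 5995 in WT, did not overlap. Mitochondrial ribosomal proteins and proteasome subunits had medians of 0.076 each. Of 37 mitochondrially encoded transcripts 32 lay above 0 (median 0.28, CL median 0.41). Transfer RNA genes made up 22 of the 37, with 21 above 0 and a median of 0.34. The sums of the 37 overlapped, at 111920 to 124020 CPM in KO and 101050 to 116940 in WT. The abundant mt-Nd2 stood at 12.06 to 12.39 in WT and 12.48 to 12.72 in KO (difference 0.42, adjusted p = 0.826), while mt-Co1 differed by -0.03.

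Sorted by the length of the longest spliced transcript, protein-coding genes at 1 log2 CPM or more formed a gradient in PI. The median difference was 0.18 for 26 genes up to 500 bases, 0.11 for 367 genes of 500 to 1000, 0.046 for 1636 of 1000 to 2000, 0.009 for 4952 of 2000 to 4000, -0.012 for 4439 of 4000 to 8000 and -0.035 for 860 longer genes. In CL the same medians ran from 0.027 to -0.006. Outside this sort, which held protein-coding genes only, stood 605 gene models annotated as TEC, unspliced transcripts awaiting experimental evidence. Of these 540 lay below 0, with a median of -0.24 against 0.06 in CL, and none was called. An unadjusted p under 0.05 was found below 0 for 113 of the 605, against 2.95% of all genes in this direction. Gm43318 is an example, at 4.60 to 4.73 log2 CPM in WT and 4.06 to 4.28 in KO (difference -0.47, adjusted p = 0.711). The summed TEC genes held 4642 to 5320 CPM in KO and 5224 to 6061 in WT, overlapping at WT library 2 and KO library 6. Length classes and TEC genes were grouped after the values had been seen.

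WT libraries 1 and 2 were the deepest, at 9.69 and 9.09 M reads. The medians kept their sign without each library in turn, from 0.11 to 0.15 for ribosomal proteins and from -0.31 to -0.20 for TEC genes. RNA integrity and the conditions of library preparation are not given in the sources used here. The part of depth in the gradient was not tested.

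**Figure D5:**
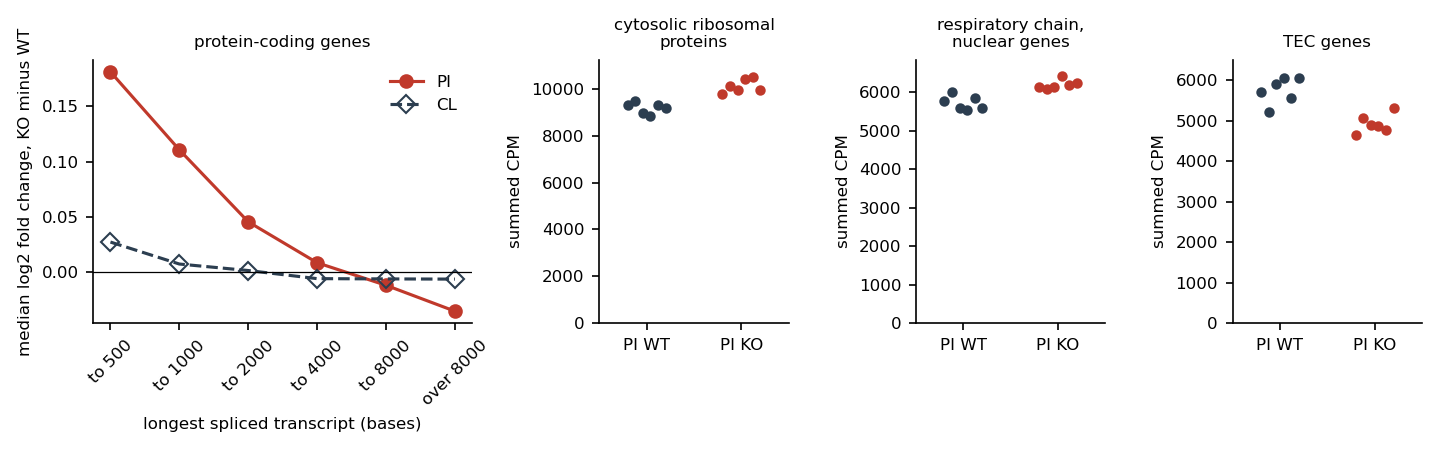
Left, median log2 fold change of KO over WT for protein-coding genes in 6 classes of spliced length, in PI (red) and CL (open diamonds). Right, summed CPM per library of cytosolic ribosomal proteins, nuclear respiratory chain genes and TEC genes (6 libraries per group, left to right): the PI median declines with length, and the first 2 sums are higher in all KO libraries.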

How the data were processed

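Total RNA of cortex was depleted of ribosomal RNA and made into CORALL libraries, per the labels' protocols. The authors deposited log2 CPM values per gene, per the file headers, in a table of 12 columns that was scaled on its own. The genome build is mm10, per the submitters' processing notes. The aligner, counter, use of strand and filters are not given in the sources used here. In 100% of genes the 2 lowest and 2 highest values of a group were tied at the group's quartiles, a step that no label records. The 4 inner values were solved from the ties (0.75 times the second value plus 0.25 times the third). Among low values untouched by the ties, 79.7% to 88.8% per library were whole reads within 0.03 read at the inferred depth. With the solved values included, the share was 33.7% to 63.7%. Each solved value was scored for both libraries of its tied pair, though it belongs to only 1 of them. A lower share follows in part from that scoring, so it does not measure how well the values were solved. Group means of these values were compared with the Winsorized sum of squares as error, on 6 degrees of freedom (12 for PI against CL), moderated by limma 3.58.1 in R 4.3.3 with a trend, two-sided, with Benjamini-Hochberg adjustment. The test was tried on simulated data. A count test was not run. The deposited values give neither the outermost value of a tied pair nor which library of the pair held the solved value. No column was left over (0 unused columns).

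The genes named are all called genes, all ciRS-7 network members, the 10 uncalled genes with the smallest p in each direction at a mean of at least 1 log2 CPM, each list's member with the smallest p and the highest marker of each cell type. A few of these genes are not reported here. Others are named as examples chosen after their values were seen. The members and the 54 lists were chosen with earlier results of these data known. Symbols were matched to GENCODE M21 (GRCm38), by symbol for 14088 genes, identifier for 58 and older symbol for 178, with 128 unmatched, Cdr1as among them. Sites were searched in the longest annotated 3′ UTR. Replicates are separate animals by their labels, and p-values measure the spread between these samples. Same-numbered PI KO and PI WT libraries were not treated as pairs, because the animals of the genotypes are different. In a later check on the deposited, narrowed values, the correlation of their deviations was above 0.1 in 2 of 6 pairs (-0.181 to 0.134).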

Additional observations from a re-analysis of the deposited data

Results flagged for a closer look

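Among 110 checks of summed gene lists and depth within the 6 libraries of a group, 1 sample stood apart from the rest by Dixon's criterion. For values of full spread chance gives about 1 in 20. The list sums are of values narrowed to the group quartiles, so that rate need not hold for them. NF-kappaB and toll-like receptor genes summed to 305.91 CPM in PI KO library 4, against 330 to 341 CPM in the other 5 KO libraries. WT libraries ran from 312 to 348 CPM.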

How the results depend on the processing

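Taking the narrowed spread at face value, limma with a trend on the deposited values called 2388 genes in PI KO against PI WT (1145 higher, 1243 lower) and 1948 genes in the PI-CL difference. On simulated data without any difference the first of these fits also made many calls, so its counts are no measure of how many genes differ. No sample is shared across genotypes, and library numbers name different animals; with the replicate number as a block the same fit called 1800 genes (865 higher, 935 lower), and 1 of 6 KO libraries correlated best with the WT library of its own number.

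Without a trend or with a robust prior, 1 gene was called lower (Cdr1), and Cdr1as was tested but not called. With the 13682 genes at a mean of 1 log2 CPM or more, 1 gene was called lower (Cdr1as). Cdr1 lay below that mean and was not tested there. In each of these fits 2 genes were called in all instead of 3. Without a trend 1 gene, Cdr1, was called in the PI-CL difference; the cause was not tested. Pseudocount 1 and centring each library on its median gene gave the same 3 calls. Leaving out each library gave 3 to 4 calls and kept the 3 locus genes every time; the fourth, without KO library 1 or 6, was Gm25679. The difference in depth was -1.24 M reads per library by both estimates.

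Uncalled differences near 0 changed sign when single libraries were left out. The ranges were -0.056 to 0.011 for Ago2, -0.018 to 0.076 for Ago3, -0.046 to 0.024 for Zswim8, -0.034 to 0.19 for Mbp, -0.048 to 0.024 for Snap25, -0.064 to 0.13 for Mrc1, -0.018 to 0.054 for Slc1a2, -0.025 to 0.057 for Lmo4, -0.098 to 0.097 for Slc2a1, -0.054 to 0.087 for Ighm and -0.070 to 0.038 for Pde10a. The counts of stress genes without each library, the length classes for seed matches and the alternatives for TEC genes were chosen after seeing the data.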

Other observations

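In 24 genes the means differed by more than 3 on the log2 scale, 15 lower and 9 higher in PI KO, of which 2 were called (Cdr1as and Cdr1). These were picked after their values were seen. In 16 of the 24 at least 3 libraries of a group were listed at the lowest value, and 16 are unnamed gene models or pseudogenes, for which reads can be split between near-identical copies. Gm25679, an snRNA gene, had the smallest p of the uncalled ones. Its WT libraries stood at 6.064 to 6.997 log2 CPM. KO libraries 2 to 5 were listed at the lowest value, while KO libraries 1 and 6 were not, and the second highest KO value was 50.4 CPM (unadjusted p = 0.0045, adjusted p = 0.768, CL unadjusted p = 0.44). KO libraries 1 and 6 are also those with the lowest sums of immediate early transcripts.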
